A study of Mus musculus with 11 samples.

Results

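The genes described here are 10 genes of NF-kB signalling in mouse colorectal organoids: 2 feedback inhibitors and 1 nuclear regulator (Tnfaip3, Nfkbia and Nfkbiz), 3 subunit genes (Nfkb1, Nfkb2 and Relb), the TNF-induced gene Tnfaip2 and 3 chemokine genes (Cxcl1, Cxcl16 and Ccl20). They were taken by name from the deposited count table, which holds 47131 genes, and all 10 were found and passed the filter on low counts. The organoids are cultures of gut epithelium in Matrigel, started from digested colon tissue of C57BL/6J mice, all female and 6 to 8 weeks old. Of 11 libraries of poly(A)-selected RNA, 5 came from control organoids and 6 from organoids exposed to 10 pM NAP for 48 h. The labels do not spell out NAP, and they call the controls untreated in one field and vehicle-treated with PBS in another. No genotype other than the strain is given. The libraries are labelled biological replicates of a group, without saying whether they came from separate mice or cultures, so the tests weigh differences only against the scatter of these libraries, part of which may be technical.

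NF-kB is a family of paired transcription factors that wait in the cytoplasm bound to inhibitor proteins. Signals from cytokine or microbe receptors reach the IKK kinases, which mark the inhibitors for destruction and free the factors to enter the nucleus. Among the genes then switched on are the pathway's own brakes, so that levels of these transcripts are often used as a readout of signalling, and chemokines by which gut epithelium calls in neutrophils and lymphocytes.

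After NAP, Tnfaip3 rose 1.62-fold and stood higher in every NAP library than in any control. Tnfaip3 encodes A20, a ubiquitin-editing enzyme that shuts off signalling upstream of IKK. The other 9 genes did not pass the test. Among these Cxcl1, the neutrophil attractant, had the largest difference, a log2 fold change of 1.04, and Nfkbia, the gene of the inhibitor IkB-alpha, one of 0.11. The call rate over all 14840 genes tested was 2.12% in either direction and 1.05% for higher genes, in edgeR's quasi-likelihood test at an adjusted p of 0.05. The count of 1 called of 10 is to be read against it. Of the 10 genes 6 had a positive log2 fold change, with a median of 0.14, against 44.7% of all tested genes and a median of −0.070. With a trend along transcript GC content removed, which is described with Tnfaip3, 9 of the 10 were positive and 0 were called. At an unadjusted p below 0.05 the count was also 1 of 10, where 23.6% of all tested genes passed.

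Promoter sequences of these genes are given as a description. RefSeq promoter windows (build GRCm38.p6, 250 bases before to 50 after a gene start) were found for 6 of the 10 genes. Each window was searched on both strands for the kappaB-type motif GGGNNTTTCC, whose letters were settled after these windows had been read. Both the genes, named as NF-kB feedback and target genes, and the letters were thus chosen with such matches likely, and the counts test nothing. It was present for 5 of the 6 genes (Tnfaip3, Nfkbia, Nfkb2, Cxcl1 and Ccl20) and in 1.63% of all 32851 windows, which is 1.89% of the 27025 genes that have one. For each of these 5 genes, 1 window with a match is shown, so that the sequence can be read beside the values. Capitals mark the matches, and each line runs 5′ to 3′ on the gene's strand.
Tnfaip3, chr10:19015361-19015660, minus strand: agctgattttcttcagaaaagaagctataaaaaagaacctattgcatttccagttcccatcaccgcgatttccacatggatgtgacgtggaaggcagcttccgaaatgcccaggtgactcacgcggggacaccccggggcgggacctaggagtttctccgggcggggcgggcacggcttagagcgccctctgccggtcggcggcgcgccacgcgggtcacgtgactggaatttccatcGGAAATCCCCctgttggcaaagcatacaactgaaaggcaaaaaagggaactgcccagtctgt
Nfkbia, chr12:55492598-55492897, minus strand: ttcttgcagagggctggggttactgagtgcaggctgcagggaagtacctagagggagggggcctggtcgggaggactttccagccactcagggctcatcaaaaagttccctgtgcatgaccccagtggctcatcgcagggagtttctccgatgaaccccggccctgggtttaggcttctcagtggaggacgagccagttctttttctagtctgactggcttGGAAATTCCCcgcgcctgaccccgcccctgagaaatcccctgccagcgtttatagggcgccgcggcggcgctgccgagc
Nfkb2, chr19:46304487-46304786, plus strand: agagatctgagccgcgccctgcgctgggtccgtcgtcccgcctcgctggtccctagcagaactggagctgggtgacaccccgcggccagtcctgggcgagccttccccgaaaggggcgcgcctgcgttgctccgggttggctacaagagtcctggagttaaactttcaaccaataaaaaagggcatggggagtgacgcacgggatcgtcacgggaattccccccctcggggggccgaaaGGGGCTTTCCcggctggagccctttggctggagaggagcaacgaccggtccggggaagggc
Cxcl1, chr5:90890995-90891294, plus strand: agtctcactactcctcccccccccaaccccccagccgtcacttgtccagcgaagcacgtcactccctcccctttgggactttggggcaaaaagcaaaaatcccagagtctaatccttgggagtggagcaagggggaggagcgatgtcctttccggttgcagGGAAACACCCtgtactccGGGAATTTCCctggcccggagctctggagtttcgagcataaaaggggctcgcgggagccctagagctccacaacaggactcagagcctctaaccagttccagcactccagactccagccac
Ccl20, chr1:83116516-83116815, plus strand: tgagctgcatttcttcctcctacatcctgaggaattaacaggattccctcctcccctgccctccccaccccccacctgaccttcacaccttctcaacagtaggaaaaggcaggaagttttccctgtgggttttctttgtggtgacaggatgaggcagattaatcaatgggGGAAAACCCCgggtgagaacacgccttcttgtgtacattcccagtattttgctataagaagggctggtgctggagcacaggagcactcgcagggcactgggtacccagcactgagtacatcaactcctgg

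The match began 12 bases upstream of the start in Tnfaip3 (GGGGATTTCC on the opposite strand) and 29 bases upstream in Nfkbia (GGGAATTTCC, opposite strand). Cxcl1 held a pair of matches, 71 and 89 bases upstream, of which the nearer was again GGGAATTTCC. In Ccl20 the match GGGGTTTTCC lay 80 bases upstream on the opposite strand. In the printed window of Nfkb2 the match GGGGCTTTCC lay 11 bases upstream; there were matches in all 3 of its windows, 2 of which overlap and share 1 match. The single window of Tnfaip2 and the second window of Tnfaip3 held no match, which says only that these letters are not there.

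Per library the counts over genes summed to between 16546263 and 21947414. Levels are given as CPM, the TMM-scaled counts-per-million value, unless stated otherwise, and 3 counts correspond to 0.130 to 0.215 CPM. Mean counts per library ran from 82.5 for Ccl20 to 2348 for Nfkbia. The cultures carried the defining epithelial genes, with a summed level of 8 epithelial markers between 9360 and 17021 CPM in all 11 libraries. Controls 2 and 5 stood apart from the other controls: 12 absorptive colonocyte markers summed to 19187 and 18570 CPM there, against 3900 to 7080 CPM in controls 1, 3 and 4 and 9114 to 14874 CPM after NAP. Their 10 stem cell markers summed to 203 and 202 CPM, against 703 to 1639 CPM in the other controls and 347 to 625.1 CPM after NAP. Values without those libraries are given beside the members whose values they move. In such bulk cultures fewer cells of a type and less RNA per cell cannot be told apart.

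Tnfaip3 lies on chromosome 10 from 18876658 to 18891158 of GRCm39. Its level in controls 1 to 5 was 61.4, 71.04, 76.9, 50.2 and 70.8 CPM. After NAP the lowest of 6 libraries had 85.0 CPM, the median was 104.6 CPM and the highest had 131 CPM. The highest values, 110, 119 and 131 CPM, were in NAP 2, 4 and 5, which were also alike over all tested genes. The groups did not overlap, a pattern seen with NAP on the higher side in 2.14% of all tested genes. The means were 66.1 ± 10.5 CPM (SD, n = 5) and 107.1 ± 16.7 CPM (SD, n = 6), a log2 fold change of 0.70 (SE 0.16, 95% interval 0.34 to 1.06, adjusted p = 0.0456).

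The size of this difference was similar in every setting tried, but the call was not. Leaving out single libraries kept the log2 fold change between 0.62 and 0.76, while the adjusted p ran from 0.0320 to 0.121 and stayed under 0.05 in 2 of the 11 cases, those without NAP 1 or NAP 3. Without controls 2 and 5 together the change was 0.79 (adjusted p = 0.0439), and with these 2 added together it was 0.74 (adjusted p = 0.0937). With a replicate block it was 0.72 (adjusted p = 0.157). The libraries also differed in how counts followed the GC content of transcripts. With that trend removed by a smooth fit in each library, the log2 fold change of Tnfaip3, whose transcript has 47.1% GC against a median of 49.8% over tested genes, was 0.63 (adjusted p = 0.0964). The share of counts from mitochondrial genes also differed, at 2.74 to 4.78% in controls and 5.17 to 8.08% after NAP, and its part in the result was not tested.

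**Figure D1:**
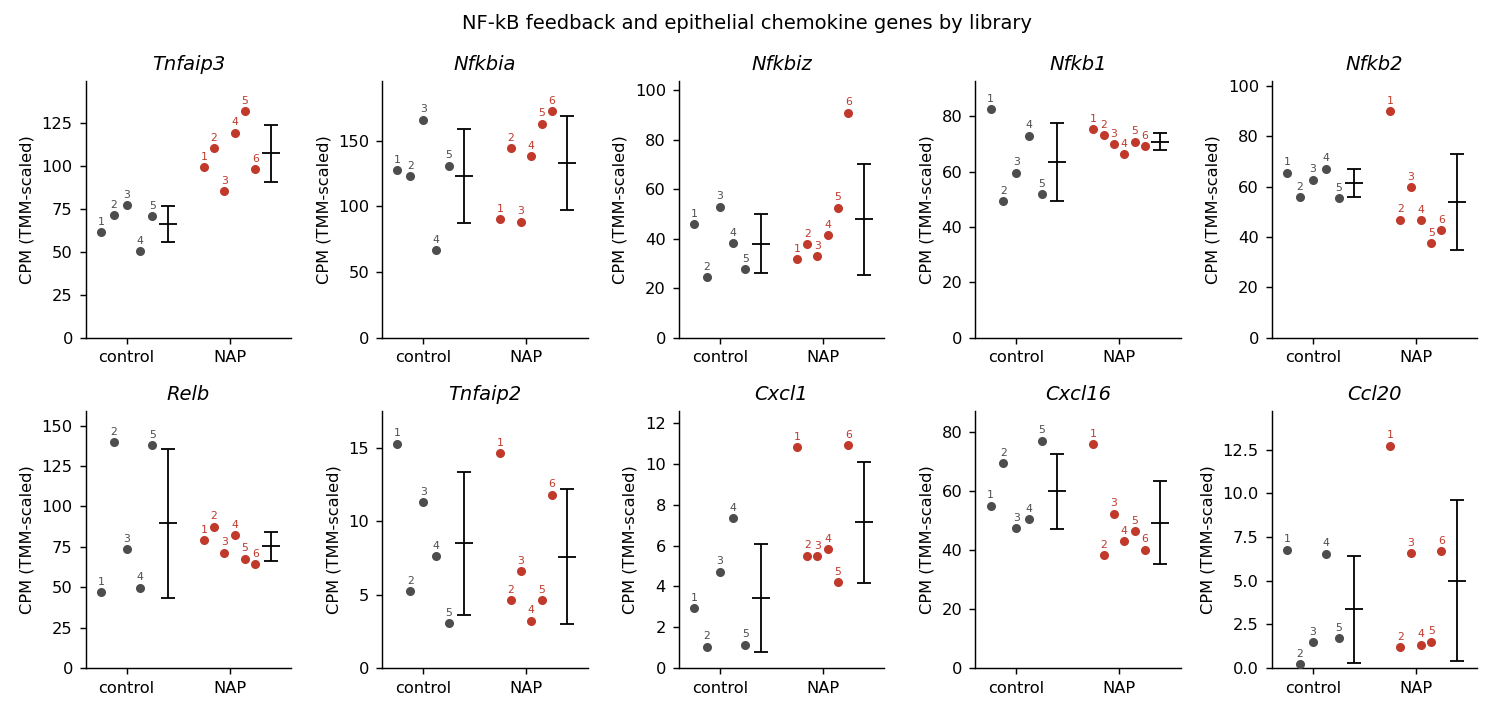
Level of each of the 10 genes in CPM after TMM scaling (vertical axes, from 0), with 1 numbered point per library in the control (grey) and NAP (red) groups and the mean with SD as a bar beside the points. The 6 Tnfaip3 points after NAP, from 85.0 to 131 CPM, sit above every control, and the groups overlap in the other 9 panels.

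**Figure D2:**
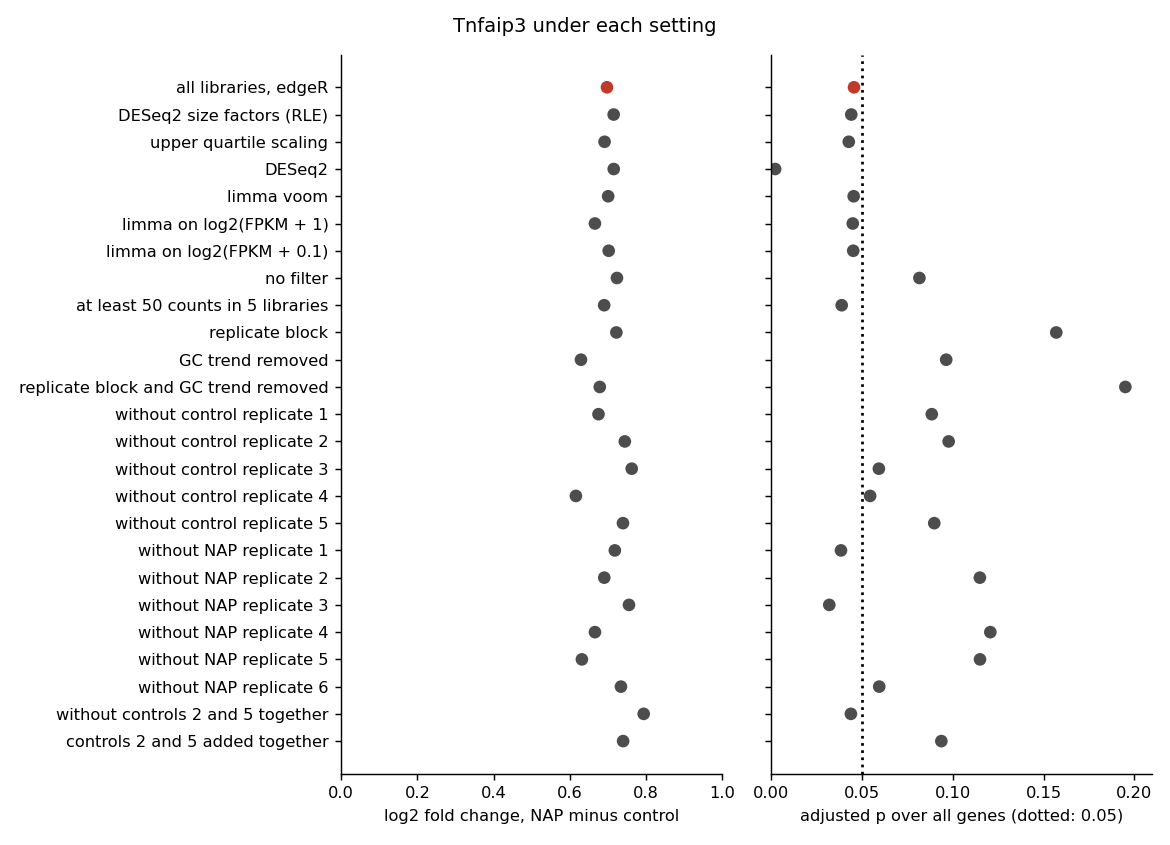
Log2 fold change of Tnfaip3 (left) and its adjusted p over all genes (right, dotted line at 0.05) in the fit to all libraries (red) and under each alternative or left-out library (grey). The fold change stays between 0.62 and 0.79, while the adjusted p lies on either side of the line, from 0.00220 with DESeq2 to 0.195 with a replicate block and the GC trend removed.

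Nfkbia, on chromosome 12 from 55536194 to 55539432, is the best-known rapid feedback gene of the pathway, and its protein carries NF-kB back out of the nucleus. Controls 1 to 5 had 128, 123, 166, 66.5 and 131 CPM. NAP libraries ran from 88.3 through a median of 141 to 172 CPM, so that 1 of 6 stood above every control. The means, 122.8 ± 35.8 and 132.7 ± 35.8 CPM, differed by less than the spread within either group (log2 fold change 0.11, 95% interval −0.44 to 0.67, adjusted p = 0.812). Whether the changes of Tnfaip3 and Nfkbia, which both carry the motif close to the start, differ from each other was not tested.

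Nfkbiz, on chromosome 16 from 55631740 to 55659004, encodes IkB-zeta, a nuclear cofactor needed for a second wave of NF-kB target genes. Levels of 46.0, 24.6, 52.9, 38.2 and 27.7 CPM in controls 1 to 5 compared with 31.7 to 90.9 CPM after NAP, with a median of 39.6 CPM. NAP 6 alone stood above every control. The log2 fold change was 0.34 (95% interval −0.33 to 1.01, adjusted p = 0.514) 0.066 without NAP 6 and 0.091 without controls 2 and 5.

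Of the subunit genes, Nfkb1 encodes p105, which is processed to p50, the partner of the Rela product in the classical dimer. It lies on chromosome 3 from 135290416 to 135397728. Controls 1 to 5 had 82.7, 49.5, 59.7, 73.1 and 52.1 CPM, and NAP libraries 66.4 to 75.3 CPM with a median of 70.5 CPM. All 6 NAP libraries lay above the control mean but none above control 1. The means were 63.4 ± 14.2 and 70.9 ± 3.15 CPM (log2 fold change 0.16, 95% interval −0.18 to 0.50, adjusted p = 0.544). Without controls 2 and 5 the log2 fold change was 0.0059.

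Nfkb2 and Relb encode the pair of the non-canonical branch, p100/p52 and RelB, which responds to receptors such as the lymphotoxin beta receptor. Nfkb2, on chromosome 19 from 46285478 to 46300839, had 65.5, 55.7, 62.8, 67.1 and 55.5 CPM in controls 1 to 5 and 37.4 to 89.9 CPM after NAP, with a median of 46.7 CPM. Of the NAP libraries 4 lay below every control, NAP 3 within them and NAP 1 above them. The log2 fold change was −0.19 (95% interval −0.66 to 0.28, adjusted p = 0.614), −0.40 without NAP 1 and 0.18 with the GC trend removed. Its interval meets those of Psd (316 shared bases) and 4833438C02Rik (2045 shared bases) on the other strand, and since the strand setting of the counting is not given, reads there cannot be told apart.

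Relb, on chromosome 7 from 19340142 to 19363363, had the highest SD among controls in CPM of the 10 genes, 46.2 CPM. Controls 2 and 5 had 140 and 138 CPM, and controls 1, 3 and 4 had 47.1, 73.6 and 49.7 CPM. NAP libraries, at 64.1 to 87.5 CPM with a median of 75.3 CPM, lay between these 2 sets apart from control 3. The log2 fold change was −0.25 (95% interval −0.89 to 0.39, adjusted p = 0.621), 0.43 without controls 2 and 5 (adjusted p = 0.127) and 0.082 with the GC trend removed. The same 2 controls had the highest sums of colonocyte markers, and the part of that cell composition in the value of Relb was not tested. Per gene length, Relb made up 36.7 and 35.1% of the summed FPKM of the 5 subunit genes in controls 2 and 5, 12.7 to 21.94% in the other controls and 18.98 to 23.8% after NAP. FPKM are the authors' counts scaled by gene length and library, for which depth intervals are not given. Nfkb1 took 17.6 to 30.2% and 25.2 to 32.0% of that sum, and Rela, the most abundant of the 5 by mean share, 41.1 ± 5.10% in controls and 38.5 ± 4.29% after NAP.

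**Figure D3:**
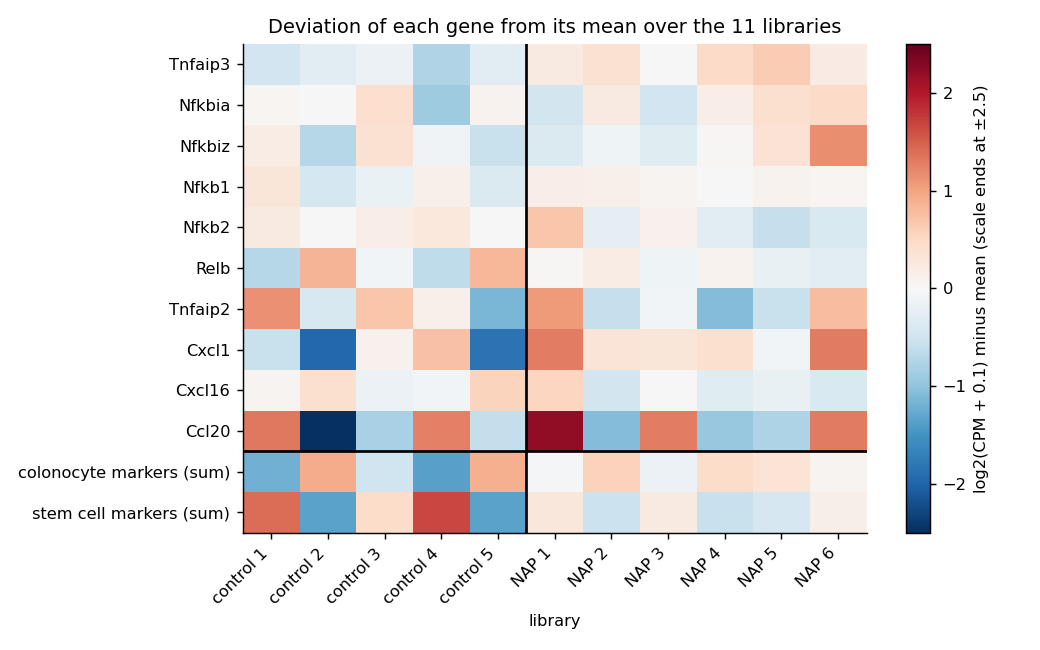
Deviation of log2(CPM + 0.1) from its mean over the 11 libraries for the 10 genes (rows above the line) and for the summed colonocyte and stem cell markers (below the line), with controls left and NAP libraries right of the vertical line. Tnfaip3 is below its mean in all 5 controls; Relb and the colonocyte row are both high in controls 2 and 5, where Cxcl1 is lowest, at 1.05 and 1.15 CPM.

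Tnfaip2, on chromosome 12 from 111408898 to 111421452, encodes a TNF-induced protein related to exocyst subunits. Levels were 15.3, 5.24, 11.3, 7.60 and 3.08 CPM in controls 1 to 5 and 3.22 to 14.6 CPM after NAP, with a median of 5.63 CPM. The ranges overlapped almost entirely (log2 fold change −0.17, 95% interval −1.21 to 0.88, adjusted p = 0.853), and the value was 0.15 without control 1 and −0.56 without controls 2 and 5.

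Among the chemokines, Cxcl1 attracts neutrophils through the receptor CXCR2. Cxcl1 lies on chromosome 5 from 91039104 to 91040980. Controls 1 to 5 had 2.95, 1.05, 4.72, 7.33 and 1.15 CPM, and NAP libraries 4.21 to 10.9 CPM with a median of 5.67 CPM. All 6 NAP libraries lay above the control mean, and NAP 1 and NAP 6, at 10.8 and 10.9 CPM, above every control. The means of 3.44 ± 2.64 and 7.13 ± 2.96 CPM gave a log2 fold change of 1.04 (SE 0.49, 95% interval −0.071 to 2.15, adjusted p = 0.221). Without controls 2 and 5 it was 0.54.

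Ccl20, on chromosome 1 from 83094487 to 83096888, encodes the ligand of CCR6, which draws dendritic cells and lymphocytes to the epithelium. It had 6.78, 0.210, 1.47, 6.55 and 1.72 CPM in controls 1 to 5, the lowest resting on 3 counts. NAP 1, 3 and 6 had 12.7, 6.56 and 6.69 CPM and NAP 2, 4 and 5 had 1.20, 1.34 and 1.51 CPM. Each group thus held libraries at low and at high levels, and the libraries with over 6 CPM in the control group were the 2 with the highest stem cell marker sums, 1340 and 1639 CPM. Whether that composition has a part in the level was not tested. The log2 fold change was 0.57 (95% interval −1.22 to 2.36, adjusted p = 0.693) 0.042 without NAP 1 and 0.055 without controls 2 and 5.

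Cxcl16 encodes a membrane-bound chemokine for CXCR6-bearing lymphocytes, released by proteolytic shedding. It lies on chromosome 11 from 70345215 to 70350810 and shares 552 bases with Zmynd15 on the other strand, so reads there are uncertain. Controls 1 to 5 had 55.0, 69.3, 47.5, 50.3 and 77.0 CPM, and NAP libraries 38.1 to 75.8 CPM with a median of 44.6 CPM. Of the NAP libraries 4 lay below every control, while NAP 1 was near the highest. The log2 fold change was −0.28 (95% interval −0.74 to 0.18, adjusted p = 0.424), −0.45 without NAP 1 and −0.023 without controls 2 and 5.

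**Figure D4:**
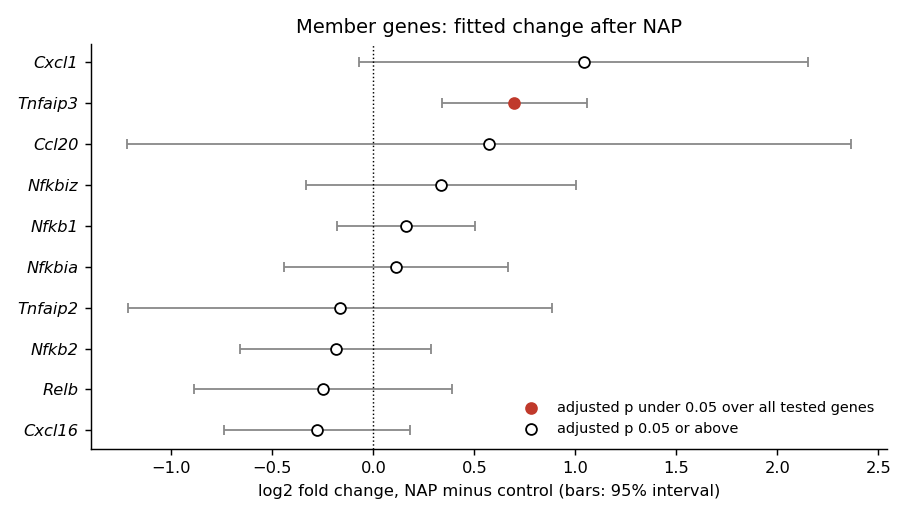
Fitted log2 fold change, NAP minus control, of the 10 genes (points) with 95% intervals (bars). The interval of Tnfaip3 (0.34 to 1.06) lies above 0, those of the other 9 genes cross 0, and Ccl20 has the widest, from −1.22 to 2.36.

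Compared per gene length, Nfkbia was the most abundant of the 10 in all 11 libraries, with a mean of 78.5 FPKM. Cxcl16 (28.8 FPKM) came next and stood above Tnfaip3 (17.9 FPKM) in all 5 controls and in 3 of the 6 NAP libraries. The place of Tnfaip3 rests on the NAP libraries: its mean was 13.3 FPKM in controls, beside 13.4 for Nfkb1 and 14.1 for Relb, and 21.7 FPKM after NAP, beside 15.1 and 11.8. It exceeded Nfkb1 in 3 of 5 controls and in all 6 NAP libraries, and Nfkb1 exceeded Relb in the same numbers. Relb (12.9 FPKM over the 11 libraries) and Nfkbiz (10.8 FPKM) could not be ordered, as Relb was higher in 6 of 11. Cxcl1, Ccl20 and Nfkb2, at 5.52, 5.11 and 4.89 FPKM, were likewise not separated beyond their spread, and Tnfaip2 was lowest at 1.80 FPKM. The length used for Nfkb2 was 11300 bases, the largest of the 10, which lowers its FPKM against the others.

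Other genes of the pathway were read from lists fixed together with these 10 genes, with earlier results of these data known. The list of other brakes on NF-kB had 17 genes, 16 of them tested. Of these 12 had a positive log2 fold change, with a median of 0.38, and 0 passed the test over all genes in edgeR; 9 were at an unadjusted p below 0.05 (8 positive, and Otulin negative), where 23.6% of all tested genes were. DESeq2 called 7, and 11.6% of all tested genes. In the other lists it called 1 of 6 further IkB and NF-kB protein genes, 1 of 12 IKK genes and 2 of 25 receptor and adaptor genes. Of other chemokines it called 0 of 11, of sheddases 1 of 2 and of other epithelial targets 2 of 17. For the brakes, the filter at 50 counts in 5 libraries left 15 genes, of which edgeR called 2. Every NAP library stood above every control for 4 of the 16, against 2.14% of all tested genes. With the GC trend removed the median of the brakes was 0.31, and without controls 2 and 5 it was 0.44. The list holds Birc2 and Birc3, at log2 fold changes of 0.59 and 0.35, which are not brakes on every branch of the pathway. Both are part of these counts and medians.

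In that list Tnip3, which encodes an A20-binding inhibitor, had 25.6 to 46.2 CPM in controls and 49.9 to 68.6 CPM in NAP libraries (a log2 difference of 0.72, SE 0.18, adjusted p = 0.0536). Cyld, another deubiquitinase that dampens the pathway, had 27.5 to 35.3 and 38.2 to 56.8 CPM (0.57, SE 0.15, adjusted p = 0.0598). Tax1bp1, Itch and Rnf11, named here after their values were seen, encode partners with which A20 forms its ubiquitin-editing complex. Their log2 fold changes were 0.56, 0.52 and 0.55, with adjusted p from 0.0747 to 0.102. Tnip1, the main A20-binding partner in textbooks, was at 0.22 (SE 0.27, adjusted p = 0.659). Tnip2, which encodes another A20-binding inhibitor, was at −0.10 (SE 0.23, adjusted p = 0.818). Otulin, which removes linear ubiquitin chains, was at −0.51 (adjusted p = 0.150).

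**Figure D5:**
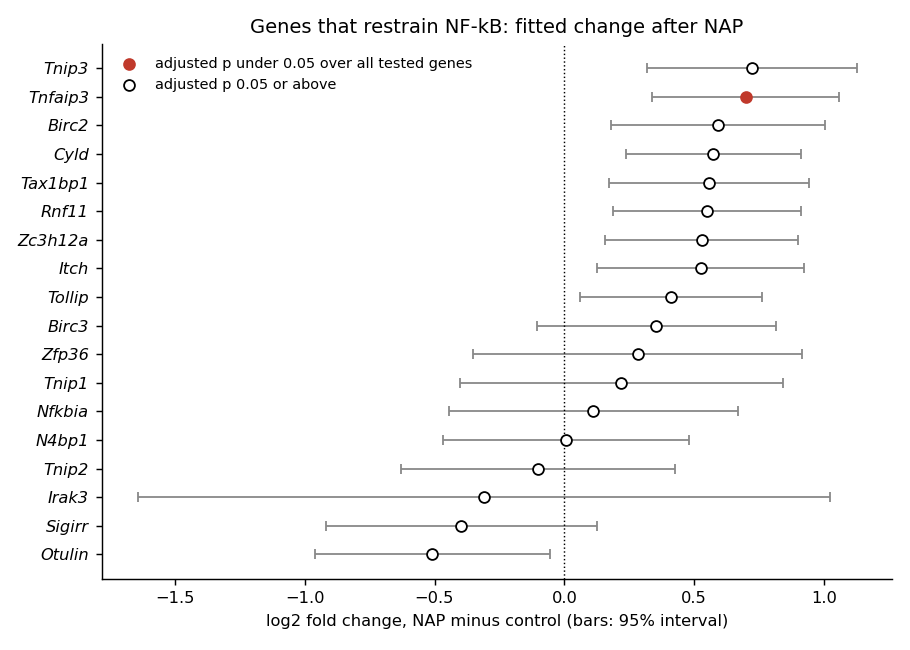
Fitted log2 fold change, NAP minus control, with 95% intervals, of the 16 tested genes in the list of other brakes on NF-kB together with Tnfaip3 and Nfkbia. Tnfaip3 (red) is the only one at an adjusted p below 0.05 in edgeR; 8 list members from Tnip3 to Tollip have values between 0.41 and 0.72, and Otulin is lowest at −0.51.

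For the signal chain upstream, 0 of 12 IKK complex and kinase genes and 0 of 25 tested receptor and adaptor genes were called by edgeR, with 3 and 8 at an unadjusted p below 0.05, shares near the 23.6% of all tested genes. The medians were 0.074 and 0.00454 on the log2 scale. Chuk, which encodes IKK-alpha, had 94.0 ± 12.6 and 158 ± 45.7 CPM (log2 fold change 0.75, adjusted p = 0.0706), and Ikbkg, the NEMO scaffold gene, was at 0.50 (adjusted p = 0.111). Irak2, a kinase gene of interleukin-1 and Toll-like receptor signalling, was at 0.81 (adjusted p = 0.0922). Ltbr is the lymphotoxin beta receptor gene upstream of RelB and p52. It had 167 and 166 CPM in controls 2 and 5 and 100.7 to 109 CPM in the other controls. After NAP it had 70.7 to 96.8 CPM. Its groups did not overlap, as in 2.57% of all tested genes with NAP on the lower side (log2 fold change −0.58, adjusted p = 0.0846). The part of controls 2 and 5, or of its transcript GC of 60.4%, in this value was not tested.

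Of 6 further IkB and NF-kB protein genes, 5 had negative values (median −0.27), where 8200 of all 14840 tested genes were negative. By edgeR 0 were called, and 2 were at an unadjusted p below 0.05, where 23.6% of all tested genes were. Nfkbib, the IkB-beta gene, had 32.1 ± 6.73 and 19.9 ± 4.20 CPM (log2 fold change −0.69, adjusted p = 0.0668). Bcl3, a nuclear IkB family gene, was at −0.33 (adjusted p = 0.147). With the GC trend removed 5 of these 6 were positive, with a median of 0.12; their transcripts have a median of 58.0% GC. The direction of this list therefore depends on that correction.

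Among other chemokines 11 of 19 were tested, 7 with positive values (median 0.22), where 44.7% of all tested genes were positive. By edgeR 0 were called. At an unadjusted p below 0.05, where 23.6% of all tested genes were, there were 2. These were Ccl28, an epithelial chemokine for IgA plasma cells, with 80.4 ± 40.0 and 142.0 ± 49.7 CPM (log2 fold change 0.82, adjusted p = 0.146), and the neutrophil chemokine gene Cxcl5, with 2.91 ± 1.01 and 5.40 ± 2.25 CPM (0.89, adjusted p = 0.157). Receptor transcripts for the chemokines described above were close to absent: Cxcr1 had no count in any library, and Cxcr2, Cxcr6 and Ccr6 stayed at or below 0.349 CPM. Adam10, the main constitutive sheddase of the CXCL16 protein, had 81.0 to 178 CPM in controls and 188 to 273 CPM after NAP (log2 fold change 0.75, adjusted p = 0.0771), while Adam17 was at 0.11 (adjusted p = 0.733). Without controls 2 and 5 the median of this pair was 0.19, against 0.43 with them, and 1 of the 2 was negative.

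In the list of other epithelial NF-kB targets 17 of 22 genes were tested, 9 with positive and 8 with negative values. The 1 called was Duox2, the hydrogen peroxide-producing dual oxidase (log2 fold change 2.09, adjusted p = 0.0344), where 2.12% of all tested genes were called. Its log2 fold change lay between 1.89 and 2.48 in the alternatives run. The call was lost with the GC trend removed (adjusted p = 0.0516), with controls 2 and 5 added together (adjusted p = 0.0916) and without control 1, 2 or 5 or NAP 2, 4, 5 or 6 (adjusted p from 0.0519 to 0.112). The median of the 17 tested genes was 0.10, and 0.42 without controls 2 and 5, where 11 were positive. Transcripts of leukocytes, which can also express many of these genes, were at low levels. The 10 leukocyte markers summed to 6.64 to 15.1 CPM in controls and 10.2 to 24.6 CPM after NAP, 5 of them stayed under 1 CPM in every library, and Ptprc was at or below 0.788 CPM. The 3 tested leukocyte markers had positive log2 fold changes, with a median of 0.81, and 0 were called. The part of that difference in the values above was not tested.

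The genes most like the mean standardized level of the 10 over the 11 libraries were Stat6, Trappc2, Pibf1, Gm39584, Magi1 and Dnajc16. Their Pearson correlations with it were 0.909, 0.908, 0.895, 0.839, 0.825 and 0.811, and Spearman's rho ran from 0.718 to 0.918. Without NAP 1 and control 2, the libraries farthest from the median of that mean level, the Pearson values were 0.435 to 0.884. They were picked as the highest among all tested genes, libraries share scaling and depth, and controls 2 and 5 stand apart, so these values are a description only.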

How the data were processed

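The tools named in the submitters' processing notes are Trimmomatic 0.39, HISAT2 2.2.1 and featureCounts from Subread 2.0.8, with build GRCm39. They state neither a strand setting nor an annotation release. The authors deposited whole-number counts per gene, and a second table of FPKM values per gene length and library, which were used for levels between genes and as an alternative.

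Columns were matched to samples by the library names in the labels. The 14840 genes passing filterByExpr entered a comparison of NAP with control over all 11 libraries, after TMM scaling, in edgeR 4.0.16 (robust quasi-likelihood test, R 4.3.3) and Benjamini-Hochberg adjustment over all of them, at 0.05; the labels give 1 batch, so no covariate entered. Standard errors are the log2 fold change over the square root of the test statistic, and 95% intervals use them with 9 degrees of freedom. The test uses other degrees of freedom, so an interval can span both signs where the unadjusted p is below 0.05. The procedure was tested on simulated counts in which libraries were drawn independently. That does not cover likeness among libraries, as in controls 2 and 5 or in NAP 2, 4 and 5. The test on simulated counts therefore does not give the error rate in these data. GC content came from the longest GENCODE M21 transcript per gene, found for 84.0% of tested genes and all 10 members; the trend was removed per library by lowess (span 0.3). Alternatives were other scalings, filters, DESeq2 1.42.0, limma 3.58.1 on voom and log2(FPKM + 1) or log2(FPKM + 0.1), a replicate block and left-out libraries. Among controls, 2 and 5 were the most alike pair (Pearson correlation of log2 CPM 0.983, against 0.854 to 0.973 for other control pairs). They still differed by more than sampling noise, and whether they share a culture is not stated. Leaving controls 2 and 5 out or adding them together was chosen after seeing the data. Among NAP libraries, 2, 4 and 5 were also alike (correlations of 0.980 to 0.983, against 0.935 to 0.974 for other NAP pairs). No fit left these NAP libraries out together. Floors of 3 counts cover counting error only.

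The members and lists were chosen with earlier results of these data known. Named genes are the 10 members, called genes of each list or else its 2 smallest p-values, and the 6 most correlated genes. Named outside that rule, after their values were seen, are Tax1bp1, Itch, Rnf11, Tnip1, Tnip2, Otulin, Birc2, Birc3, Rela and, as receptors or markers, Cxcr1, Cxcr2, Cxcr6, Ccr6 and Ptprc.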

Additional observations from a re-analysis of the deposited data

Results flagged for a closer look

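Within the 6 NAP libraries, 2 values lay far from the others by Dixon's test at the 95% level, over 46 groups of 5 or 6 libraries tested, of which chance flags about 1 in 20. Nfkbiz in NAP 6 was at 90.9 CPM, against 31.7 to 52.5 CPM in the other NAP libraries. Cxcl16 in NAP 1 was at 75.8 CPM, against 38.1 to 52.2 CPM in the others.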

How the results depend on the processing

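All genes called numbered 1721 with DESeq2, 89 without a filter, 525 with at least 50 counts in 5 libraries, 34 with the GC trend removed, 824 without controls 2 and 5 and 0 with these added together (3241 at an unadjusted p below 0.05), against 315. Leaving out single libraries gave 0 to 814, with 0 without control 1, 2 or 5 or NAP 2, 4 or 5 (2614 to 3311 at an unadjusted p below 0.05, in edgeR). Of the 10 members, 0 were called without a filter, with the GC trend removed or with controls 2 and 5 added together, 0 to 1 without single libraries, and 1 (Tnfaip3) under the other scalings, DESeq2, limma, the stricter filter and without controls 2 and 5. The members' median log2 fold change stayed between 0.050 and 0.22.

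Uncalled values changed sign for Nfkb2, Relb and Tnfaip2 with the GC trend removed (0.18, 0.082 and 0.12), and for Relb without controls 2 and 5 (0.43). Without single libraries Tnfaip2 ran from −0.46 to 0.15 (positive without control 1) and Nfkbia from −0.043 to 0.25 (negative without control 4). The cause was not tested.

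With a replicate block, 0 genes and 0 members were called in edgeR, with 2903 genes at an unadjusted p below 0.05; with the block and the GC trend removed, 0 and 0, with 2587, and Nfkb2 and Relb were at 0.17 and 0.21. Duox2 was not called with the block (adjusted p = 0.132). Same-numbered libraries correlated at −0.300 to 0.424 in their deviations from group means, and 2 of 5 controls correlated best with their own number, so the numbers were not taken to pair libraries. Depth limits Ccl20 and Cxcl1 most, at means of 82.5 and 104.2 counts.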
